A study of Mus musculus with 6 samples.

Results

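The genes studied carry symbols of keratins, S100A and LY6 proteins, claudins and connexins, cadherins and plakophilins, integrins, laminins and collagens, metalloproteinases and protease inhibitors. Many of these genes encode proteins with which squamous epithelial cells hold to each other and to the matrix beneath them. They were chosen by symbol among the protein-coding genes of the deposited table, leaving out the basal keratins KRT15, KRT5 and KRT14, which gave 66 members of 4195 listed genes. The cells were KYSE30, an established human line from an esophageal squamous cell carcinoma, labelled as WT. They were either exposed to 100 uM acetylcholine (ACh), a neurotransmitter with muscarinic and nicotinic receptors, for 4 h (3 libraries) or kept as Control for 4 h (3 libraries). The comparison asks how transcript levels differ with ACh at that time.

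Epithelial sheets are held together by tight junctions, built on claudins, by gap junctions, built on connexins, and by desmosomes, in which desmogleins and desmocollins reach across the gap and plakophilins tie them to keratin filaments. On the basal side, hemidesmosomes anchor the same filaments through integrin alpha6 beta4 and COL17A1 to laminin, while other integrins bind collagens, laminins and RGD-containing proteins. Metalloproteinases and ADAM proteases cut matrix and cell-surface proteins, and many serpins, though not all, and Kunitz-type inhibitors restrain serine proteases.

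The deposited table lists, per gene, normalised read counts in each library, and holds only genes with an unadjusted p under 0.05 in the authors' own comparison. Members that are not in the table have no value here. Summed over the listed genes, the ACh libraries held 10519500 to 10681100 normalised reads and the Control libraries 11097300 to 11469000, sums that are not the sequencing depth, which is unknown. The 66 members took 3.99% to 4.06% of that sum in ACh and 4.14% to 4.21% in Control. Nothing in the labels says that the 3 libraries of a group came from separate cultures, so the p-values given here cover only the spread between libraries, part of which may be technical. Of 17 markers fixed for squamous epithelium 8 were listed. The means of TP63, DSC3, DSG3 and DSP were higher in ACh, and those of SFN, SOX2, JUP and KRT15 lower. The 8 summed to 41743 to 42198 normalised reads in ACh and 43695 to 45544 in Control. Of 5 markers of simple epithelium 4 were listed, all of them keratins, at 112836 to 116187 in ACh and 135702 to 150477 in Control. These 4 keratins, DSC3, DSG3 and the fibroblast marker COL1A1 are themselves members, so their values are not separate from those below. Of 7 fibroblast, 5 endothelial and 6 leukocyte markers 1 each was listed, and of 6 muscle and nerve markers 0. The 1 fibroblast marker, COL1A1, stood at 133 to 147 normalised reads in ACh and 146 to 193 in Control, the endothelial EGFL7 at 818 to 970 in ACh and 1052 to 1081 in Control, and the leukocyte LAPTM5 at 31.1 to 48.2 in ACh and 17.7 to 21.3 in Control. The part of other cells in the results was not tested.

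Of the 66 members, 22 rose and 28 fell in ACh, and 16 did not pass. A gene is said to have risen or fallen here only where it passed both limma on log2(value + 1), with Benjamini-Hochberg adjustment at 0.05 over all listed genes, and the authors' deposited adjusted p of 0.05. Over all listed genes, 28.8% rose and 35.0% fell by the same rule (63.8% either way), near the 33.3% and 42.4% of the members. Since the table was itself cut on p, passing is common in it and is no support for a change in the members as a group. The median log2 fold change of the members was -0.10, as it was over all listed genes (-0.10). Changes were small: the median among the 50 called members was 1.14-fold and the largest 1.42-fold. By limma alone, 65 of the 66 passed, against 99.6% of listed genes. The 3 ACh and 3 Control values did not overlap for 61 of 66 members, against 93.0% of all listed genes. ACh lay above in 27 members (44.6% of listed genes) and below in 34 (48.3%). With the libraries scaled to equal totals over the listed genes, the 22 rises all kept their call, 19 of the 28 falls kept theirs, 9 falls lost it, and none of the 50 changed direction. Over all listed genes 28.8% then rose and 23.6% fell, and the median of all listed genes moved up by 0.08 on the log2 scale. Since the listed sums were lower in ACh, this scaling moves log2 fold changes up, so the kept rises are no support for them. The sums cover only genes cut on p and need not be equal, so a fall lost this way shows only a dependence on scaling.

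**Figure D1:**
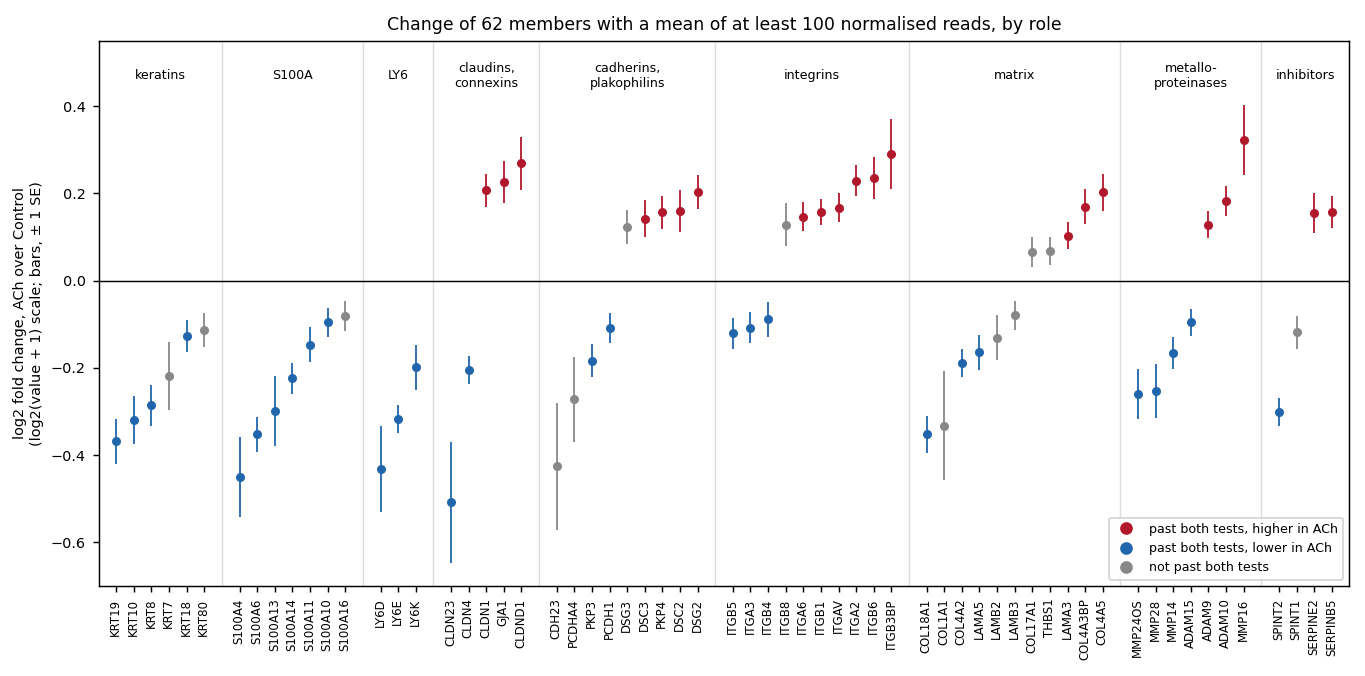
Log2 fold change (ACh over Control, on the log2(value + 1) scale; bars, 1 SE) of 62 members with a mean of at least 100 normalised reads, grouped by role; red, rose; blue, fell; grey, did not pass both tests. Keratins, S100A and LY6 genes all lie below 0, while the integrins, desmosomal cadherins and serpins lie mostly above it.

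Base composition moved with direction, as in the table as a whole, and it bears on every group below. Values of GC content came from mouse genes matched by symbol, found for 65 of the 66 members, because no human sequence was used here. The members that rose had a median GC content of 44.3% and those that fell 56.4%. Across the 65 members, Spearman's rho between log2 fold change and GC content was -0.63, and across 3676 listed genes it was -0.76; genes share libraries and are not independent, so no p is given. Of the 22 members with a GC content of at most 49.0%, 18 rose and 0 fell. Of the 22 with at least 55.6%, 0 rose and 15 fell. The GC trend was fitted in each library on the 3676 listed genes with a value, all of them cut on p. It could differ over genes outside the table, so corrected values depend on that choice of genes, which was not tested. Once each library was corrected for this trend, 12 of the 49 called members with a value kept their call and sign, 19 lost the call in the same direction, and 18 changed sign, 4 of these past limma. Over all listed genes, 328 of 2460 kept theirs (13.3%), and limma alone then called 6.04% higher and 9.77% lower, against 11 and 9 of the 65 members. They included KRT19, KRT10, S100A4, S100A6, S100A11, S100A14, LY6E and SPINT2 among the falls, and PKP4, COL4A5 and LAMA3 among the rises.

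**Figure D2:**
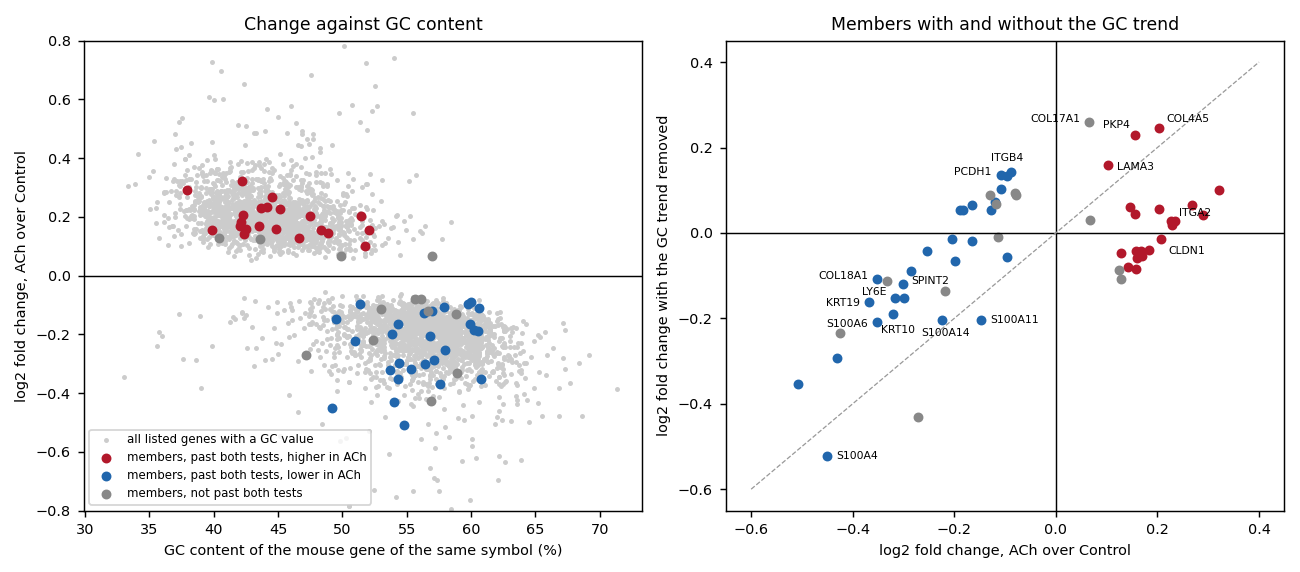
Left, log2 fold change (ACh over Control) against GC content (mouse genes matched by symbol), for all listed genes with a value (grey dots) and the members with a mean of at least 100 (red, rose; blue, fell; dark grey, did not pass); genes beyond 0.8 either way are not drawn. Right, the members' log2 fold changes with the GC trend removed against those with it kept, with a dashed line of equality. S100A4, S100A6 and KRT19 stay well below 0, and many rises such as ITGA2 and CLDN1 come to lie near 0.

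All 6 listed keratins had lower means in ACh, where 4 fell and 2 did not pass both tests. Over all listed genes, 2170 of 4195 had lower means in ACh and 35.0% fell. Keratins form filaments from a type I and a type II chain, and KRT8, KRT18 and KRT19 are the filament proteins of simple epithelia that carcinoma lines often express. KRT19, a type I keratin (ENSG00000171345, chromosome 17 from 41523617 to 41528308; the human build is not given in the sources used here), had 52163, 51165 and 50234 normalised reads in ACh, against 62676, 71282 and 64557 in Control. Every ACh library lay below every Control library, and the log2 fold change was -0.37 with a standard error (SE) of 0.05 (limma adjusted p = 1.35e-05). It stayed lower with the GC trend removed, at -0.16 (limma adjusted p = 0.0308). KRT8, the type II partner, had 50383, 49746 and 49844 in ACh, against 58743, 64023 and 60186 in Control. The groups did not overlap and KRT8 fell by 0.29 on the log2 scale, but the call ended once the GC trend was removed (-0.09). KRT10, the type I keratin of differentiating suprabasal layers, had 715, 680 and 707 in ACh, against 896, 845 and 885 in Control. It fell by 0.32, without overlap, and by 0.19 with the GC trend removed (limma adjusted p = 0.0263). KRT18 (log2 fold change -0.13) fell too, but lost its call with equal totals and stood at 0.05 with the GC trend removed. In such bulk samples, fewer cells of a type and less RNA per cell cannot be told apart. KRT7 and KRT80, type II keratins, did not pass both tests (-0.22 and -0.11). The deposited coordinates of KRT8 and KRT18 overlap on opposite strands, and whether strand was used in counting is not stated, so reads of the shared stretch could not be told apart. The same holds for CDH23, ITGB4, COL18A1, COL4A3BP, LAMA5 and MMP28, each of which overlaps another listed gene on the other strand.

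The basal keratin KRT15, which is not a member, had 2900, 2289 and 2681 in ACh, against 2990, 2899 and 2931 in Control. Its groups overlapped, and the fall of 0.17 lost its call without ACh replicate 2 (-0.08). KRT15 stood at -0.09 with equal totals and at -0.01 without a call with the GC trend removed (limma adjusted p = 0.949). KRT5 and KRT14 have no value here.

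The means of all 7 listed S100A genes were lower in ACh, and 6 of the 7 fell. Lower means were found in 2170 of all 4195 listed genes, and 35.0% of them fell. The S100A genes encode small calcium-binding proteins and lie together on chromosome 1, between 151982915 and 153631360. S100A6, or calcyclin (ENSG00000197956), had 25219, 23410 and 25669 in ACh, against 31639, 31200 and 31960 in Control. The highest ACh library was well below the lowest Control library, with a log2 fold change of -0.35 and a standard error of 0.04 (limma adjusted p = 2.11e-06). S100A4, which binds non-muscle myosin and is linked to cell motility, had 623, 493 and 654 in ACh, against 895, 693 and 828 in Control. Its replicates were uneven, replicate 2 being the lowest in both groups, but the groups did not overlap, and S100A4 fell by 0.45 (SE 0.09, limma adjusted p = 0.000343). S100A14 had 2490, 2577 and 2562 in ACh, against 2953, 3071 and 2887 in Control. It fell by 0.22, without overlap. S100A13 had 478, 612 and 481 in ACh, against 639, 644 and 638 in Control. It fell by 0.30, with ACh replicate 2 close to the Control libraries. S100A11 and S100A10, the partner of annexin A2, fell by 0.15 and 0.10, and S100A16 did not pass both tests (-0.08). The call of S100A10 ended without ACh replicate 2 (-0.07), and S100A10 and S100A11 lost theirs with equal totals (-0.02 and -0.07). With the GC trend removed S100A4, S100A6, S100A11 and S100A14 stood at -0.52, -0.21, -0.20 and -0.20 and kept their calls. S100A13 and S100A10 then lost theirs (-0.15 and -0.06), and S100A16 was at 0.09.

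The 3 listed LY6 genes fell, as did 35.0% of all listed genes. LY6 genes encode small surface proteins with a three-finger fold, most of them held by a lipid anchor. That fold is also found in modulators of nicotinic receptors. LY6E (ENSG00000160932, chromosome 8) had 10823, 10587 and 10710 in ACh, against 13136, 13598 and 13268 in Control. The replicates of each group lay close together and far from the other group, and the log2 fold change was -0.32 with an SE of 0.03 (limma adjusted p = 5.11e-07). LY6D, a marker of squamous cells, had 190, 183 and 211 in ACh, against 276, 265 and 246 in Control. LY6K had 1159, 1101 and 1022 in ACh, against 1247, 1299 and 1218 in Control. Neither overlapped between groups, and they fell by 0.43 and 0.20. Removal of the GC trend left LY6E called at -0.15 (limma adjusted p = 0.000884). LY6D then narrowly lost its call at -0.29 (limma adjusted p = 0.051), and LY6K stood at -0.07 without a call.

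**Figure D3:**
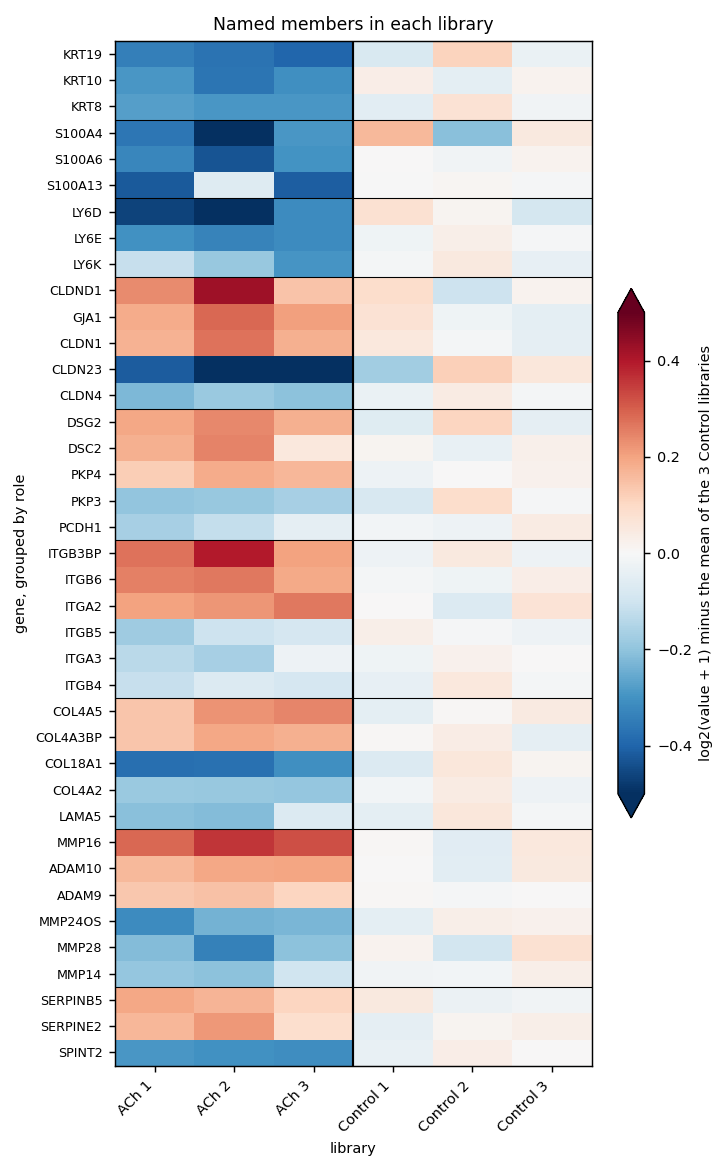
Each of 39 named members in each library, as log2(value + 1) minus the mean of the 3 Control libraries (color, red above and blue below, with the scale ending at 0.5 either way); the ACh libraries are left of the line and the Control libraries right, and lines across separate the roles. The keratin, S100A and LY6 rows are blue in the ACh libraries, and the other roles hold both colors.

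Claudins and the connexin went both ways. CLDN1, a barrier-forming claudin of stratified epithelium, had 2809, 3004 and 2814 in ACh, against 2581, 2476 and 2416 in Control. CLDN4, a claudin of simple epithelium, had 6979, 7178 and 7075 in ACh, against 7979, 8391 and 8102 in Control. CLDN1 thus rose by 0.21 and CLDN4 fell by 0.20 on the log2 scale, each without overlap (SEs 0.04 and 0.03). Their GC contents lay far apart, 42.3% and 56.8%, and with the GC trend removed both stood at -0.01 without a call. CLDN23, at a low level, had 90.1, 84.9 and 78.6 in ACh, against 107, 131 and 125 in Control, and fell by 0.51. GJA1, the gap junction protein connexin 43, had 1233, 1324 and 1251 in ACh, against 1140, 1068 and 1047 in Control, and rose by 0.23. After removal of the GC trend, neither CLDN23 (-0.35) nor GJA1 (0.03) was called.

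The 4 listed desmosomal cadherins were all higher in ACh, without overlap between the groups. Of these, 3 rose and DSG3 did not pass both tests (0.12). Over all listed genes, 93.0% did not overlap, 44.6% with ACh above, and 28.8% rose. The 4 desmosomal cadherin genes lie in one cluster on chromosome 18, between 30990008 and 31549008. DSG2, the desmoglein found in all desmosome-bearing tissues, had 6079, 6269 and 6002 in ACh, against 5090, 5718 and 5153 in Control. Its log2 fold change was 0.20 with an SE of 0.04 (limma adjusted p = 0.000204). DSC2 had 1530, 1608 and 1403 in ACh, against 1364, 1317 and 1378 in Control. ACh replicate 3 came close to the Control libraries, and DSC2 rose by 0.16, as DSC3 did by 0.14. All 4 lie at low GC content, 42.4% to 47.5%, and with the GC trend removed none kept a call by limma, with DSG2 at 0.06, DSC2 at -0.06, DSC3 at -0.08 and DSG3 at -0.09.

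The plakophilins differed from each other. PKP4, a relative of p120 catenin found at adherens junctions, had 2056, 2146 and 2118 in ACh, against 1859, 1893 and 1917 in Control. PKP3, a desmosomal plaque protein, had 4620, 4653 and 4730 in ACh, against 5010, 5639 and 5272 in Control. PKP4 rose by 0.16 and PKP3 fell by 0.18, both without overlap. PKP4 kept its call with the GC trend removed, at 0.23 (limma adjusted p = 0.000157), and PKP3 turned to 0.05. The protocadherin PCDH1 had 5065, 5228 and 5508 in ACh, against 5621, 5569 and 5841 in Control. It fell by 0.11, but the call ended without ACh replicate 1 (-0.08) and with equal totals (-0.03), and it passed limma in the other direction with the GC trend removed (0.13). PCDHA4 and CDH23 did not pass both tests (-0.27 and -0.43; CDH23 was at -0.25 without Control replicate 3), with PCDHA4 at -0.43 once the GC trend was removed (limma adjusted p = 0.00214). Constant exons are shared within the PCDHA cluster, so reads of PCDHA4 may belong to its neighbours.

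Among 9 listed integrin subunits, 5 rose and 3 fell, beside 28.8% and 35.0% of all listed genes. ITGB8 did not pass both tests (0.13, or 0.07 without Control replicate 2). Integrins work as pairs of an alpha and a beta chain. ITGA2, the alpha chain of a collagen receptor (ENSG00000164171, chromosome 5 from 52989326 to 53094779), had 7369, 7476 and 7686 in ACh, against 6410, 6105 and 6722 in Control. All ACh libraries were above all Control libraries, with a log2 fold change of 0.23 and a standard error of 0.04 (limma adjusted p = 3.21e-05). ITGB6, an epithelial beta chain that pairs with alphav and can activate latent TGF-beta, had 1172, 1183 and 1121 in ACh, against 978, 969 and 1007 in Control. It rose by 0.23, without overlap. ITGB1, the most widely shared beta chain, had 6195, 6223 and 6208 in ACh, against 5643, 5600 and 5460 in Control. It rose by 0.16, and its partners ITGAV and ITGA6 rose by 0.17 and 0.15.

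The 3 integrin chains that fell did so by small amounts. ITGB4, the hemidesmosomal beta chain and the most abundant integrin transcript among the members per length, had 33303, 34339 and 34011 in ACh, against 34992, 37422 and 35760 in Control. Its fall of 0.09 (limma adjusted p = 0.0415) ended with any one of the 3 ACh libraries, or Control replicate 2 or 3, left out (-0.10 to -0.06), with equal totals (-0.01) and with adjustment over the 11193 genes the authors tested (limma adjusted p = 0.111). ITGA3, the alpha chain of a laminin receptor, had 8468, 8288 and 9123 in ACh, against 9144, 9423 and 9299 in Control. It fell by 0.11, with ACh replicate 3 next to the Control libraries, a call that ended without ACh replicate 2 (-0.08) and with equal totals (-0.03). ITGB5 had 2487, 2616 and 2654 in ACh, against 2869, 2799 and 2763 in Control, and its fall of 0.12 ended with equal totals too (-0.04). With the GC trend removed, 0 of the 8 called integrin subunits kept call and sign by limma. ITGA2, ITGB6 and ITGA6 then stood at 0.02, 0.03 and 0.06, ITGB1 and ITGAV both at -0.04, and ITGB5 at 0.07. ITGB4 and ITGA3 passed limma in the other direction (0.14 and 0.10, limma adjusted p = 0.0189 and 0.0309).

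Laminin and collagen genes went both ways. LAMA3 and LAMB3 encode chains of the laminin that hemidesmosomes bind. LAMA3 had 5816, 5841 and 5984 in ACh, against 5473, 5411 and 5548 in Control. LAMA3 rose by 0.10 without overlap (SE 0.03), and its call held with the GC trend removed, at 0.16. LAMB3 had 6516, 6157 and 6590 in ACh, against 6710, 6793 and 6843 in Control. It lay below Control in every ACh library but did not pass both tests (-0.08; 0.00 with equal totals and 0.09 with the GC trend removed). LAMA5, the alpha chain of basement membrane laminins, had 13546, 13449 and 14920 in ACh, against 15143, 16264 and 15550 in Control. It fell by 0.16, with ACh replicate 3 nearest to the Control libraries, and stood at 0.07 with the GC trend removed; LAMB2 did not pass both tests (-0.13; -0.06 without ACh replicate 2).

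COL4A5, a basement membrane collagen chain (ENSG00000188153, chromosome X from 108439844 to 108697545), had 1627, 1728 and 1749 in ACh, against 1428, 1483 and 1523 in Control. COL4A2, another chain of collagen IV, had 4014, 3998 and 3990 in ACh, against 4514, 4689 and 4480 in Control. COL4A5 rose by 0.20 and COL4A2 fell by 0.19, without overlap in either. COL4A5 kept its call with the GC trend removed (0.25), whereas COL4A2 turned to 0.05. COL18A1, the source of endostatin, had 1485, 1487 and 1560 in ACh, against 1838, 2003 and 1947 in Control. It fell by 0.35 (SE 0.04, limma adjusted p = 2.92e-06), the largest fall among the matrix genes past both tests, and by 0.11 with the GC trend removed (limma adjusted p = 0.0549). COL17A1, the hemidesmosomal collagen, had 19127, 19425 and 19212 in ACh, against 18222, 18758 and 18223 in Control. Its groups did not overlap, yet at 0.07 it passed neither limma (adjusted p = 0.0676) nor the authors' adjusted p (0.0557). With the GC trend removed it stood at 0.26 by limma (adjusted p = 5.04e-06), and with equal totals at 0.15. THBS1, a matricellular glycoprotein, and COL1A1 did not pass both tests (0.07 and -0.33).

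Of the proteases, the cell-surface sheddases ADAM10 and ADAM9 rose and the matrix metalloproteinases MMP14 and MMP28 fell. ADAM10, which cleaves Notch receptors and E-cadherin, had 3979, 4062 and 4073 in ACh, against 3565, 3428 and 3682 in Control. It rose by 0.18 and ADAM9 by 0.13, each without overlap, while ADAM15 fell by 0.10, a call that ended with equal totals (-0.02). MMP14, the membrane-type metalloproteinase that activates MMP2, had 2666, 2644 and 2839 in ACh, against 3011, 3016 and 3110 in Control. It fell by 0.17 without overlap, and by 0.09 without a call with equal totals (adjusted p = 0.056 by limma). MMP28, or epilysin, had 670, 617 and 677 in ACh, against 789, 732 and 822 in Control. It fell by 0.25. MMP16, another membrane-type enzyme, had 357, 374 and 366 in ACh, against 293, 281 and 303 in Control. It rose by 0.32, the largest rise among members past both tests, again without overlap. None of these 6 kept call and sign by limma with the GC trend removed: MMP16 stood at 0.10, MMP28 at -0.04 and MMP14 at -0.02, ADAM10 at -0.04, ADAM9 at -0.05 and ADAM15 at 0.13, the last past limma in the other direction (adjusted p = 0.00306).

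MMP9, or gelatinase B, was at the edge of detection, with 5.36, 6.79 and 96.4 in ACh, against 0, 0 and 5.37 in Control. Most of its signal came from ACh replicate 3, and ACh replicate 1 lay under Control replicate 3. ADAMTS17 had 24.7, 32.8 and 45.1 in ACh, against 20.7, 24.4 and 14.6 in Control, and SERPINB7 had 49.3, 53.2 and 54.5 in ACh, against 27.6, 32.5 and 33.8 in Control. In the authors' deposited table these 3 genes have an adjusted p of exactly 1; they are the members with a mean under 100, so they could not pass both tests.

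Of the 5 members with a serpin or SPINT symbol, SERPINB5 and SERPINE2 rose, SPINT2 fell, and SPINT1 and SERPINB7 did not pass both tests. SPINT2, a Kunitz-type inhibitor of membrane serine proteases such as matriptase (ENSG00000167642, chromosome 19 from 38244035 to 38292614), had 11639, 11554 and 11476 in ACh, against 13891, 14567 and 14280 in Control. Replicates differed little beside the gap between the groups, and the log2 fold change was -0.30 with an SE of 0.03 (limma adjusted p = 9.71e-07), or -0.12 with the GC trend removed (limma adjusted p = 0.00967). Its paralogue SPINT1 had 1748, 1730 and 1758 in ACh, against 1876, 1922 and 1888 in Control, without overlap (-0.12; 0.07 with the GC trend removed). SERPINB5, or maspin, an epithelial serpin, had 3383, 3325 and 3180 in ACh, against 3056, 2893 and 2918 in Control. SERPINE2, an inhibitor of thrombin and plasminogen activators, had 1440, 1491 and 1361 in ACh, against 1246, 1298 and 1309 in Control. Both rose by 0.16 without overlap, and neither kept its call with the GC trend removed (-0.08 and 0.04).

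The symbol rule also took in 4 genes whose products belong to other families. CLDND1, a claudin-domain protein, rose by 0.27, ITGB3BP, a centromere protein, by 0.29, and COL4A3BP, a ceramide transporter, by 0.17. All 3 calls ended with the GC trend removed (0.07, 0.04 and -0.05). MMP24OS, read from the strand opposite MMP24, fell by 0.26, and its reads could not be told apart from those of MMP24. Without these 4 genes, 19 of 62 members rose and 27 fell.

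Levels were compared between members as normalised reads per kb of the deposited gene length. The highest levels were those of S100A11, S100A6 and KRT19, at 27681 ± 1238, 25506 ± 1231 and 21912 ± 413 reads per kb in ACh, and at 30655 ± 1299, 32543 ± 393 and 28327 ± 1937 in Control (SD, n = 3 each). S100A11 and S100A6 changed places at the top, S100A11 being first in ACh and S100A6 in Control. In both groups their means differed by less than 2 SD of S100A11, but the SD of S100A6 in Control was smaller, at 393. KRT8 and S100A10 followed at 7265 ± 49.9 and 7452 ± 229 in ACh, and at 8863 ± 397 and 7962 ± 33.9 in Control. ITGB4, LY6E and KRT18 came next, ITGB4 at 5012 ± 78.3 in ACh and 5333 ± 184 in Control. The lowest were ADAMTS17, CDH23 and COL1A1 in ACh, and MMP9, ADAMTS17 and CDH23 in Control.

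**Figure D4:**
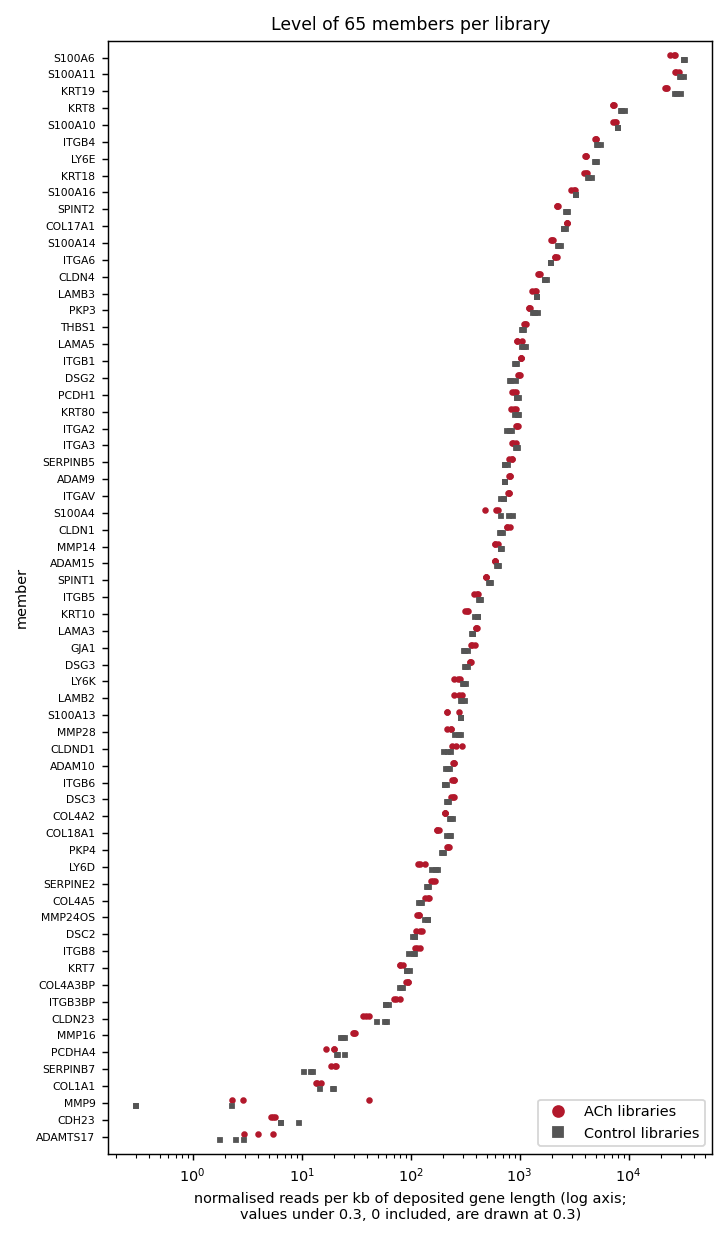
Normalised reads per kb of deposited gene length (log axis) for each of 65 members, one mark per library (circles, ACh, above; squares, Control, below), ordered by level. S100A11, S100A6 and KRT19 lie well above the rest, and MMP9, with 2 Control libraries at 0, is the one whose ACh libraries spread most.

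Ratios of partner genes within a library do not depend on how the libraries were scaled. The pairs were chosen with earlier results of these data known, so they are given as values with no test; with 3 against 3 an exact test could not go below 0.1. ITGA6 per ITGB4, the chains of the hemidesmosome integrin, was 0.431 ± 0.00679 in ACh and 0.366 ± 0.0136 in Control (per length; SD, n = 3 each), and ITGA3 per ITGB1 was 0.852 ± 0.0439 in ACh and 1.02 ± 0.0265 in Control. ITGAV per ITGB5 was 1.99 ± 0.0936 in ACh and 1.63 ± 0.0609 in Control. The libraries of the groups did not overlap in these 3 ratios. That follows from the single genes, since both partners lay apart between the groups, in opposite directions. The partners also differ in GC content. With the GC trend removed, the log2 differences of 0.24, -0.27 and 0.29 turned to -0.08, 0.15 and -0.12. ITGAV per ITGB6, ITGAV per ITGB8, ITGA6 per ITGB1 and ITGA2 per ITGB1 overlapped between the groups.

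Other ratios kept their sign with the GC trend removed. SPINT1 per SPINT2, whose mouse genes have GC contents of 56.7% and 56.4%, was 0.222 ± 0.00274 in ACh and 0.195 ± 0.00251 in Control, a log2 difference of 0.18 (0.19 with the GC trend removed). KRT8 per KRT18, at GC contents of 57.1% and 56.4%, was 1.80 ± 0.0616 in ACh and 2.01 ± 0.0338 in Control. The log2 difference was -0.16 (-0.14 with the GC trend removed). Reads of the stretch that KRT8 and KRT18 share on opposite strands could not be told apart. LAMA3 per LAMB3 was 0.293 ± 0.00927 in ACh and 0.258 ± 0.00315 in Control, with a log2 difference of 0.18, reduced to 0.07 with the GC trend removed. The libraries did not overlap in any of these 3, which for LAMA3 per LAMB3 follows from partners that lay apart in opposite directions. KRT19 per KRT8 was 3.02 ± 0.0422 in ACh and 3.19 ± 0.0746 in Control. The desmosomal pairs DSG2 per DSC2 and DSG3 per DSC3 overlapped, as did LAMA5 per LAMB2. S100A6 per S100A11 was 0.922 ± 0.0521 in ACh and 1.06 ± 0.0551 in Control, without overlap, and its log2 difference of -0.21 became -0.0042 with the GC trend removed.

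**Figure D5:**
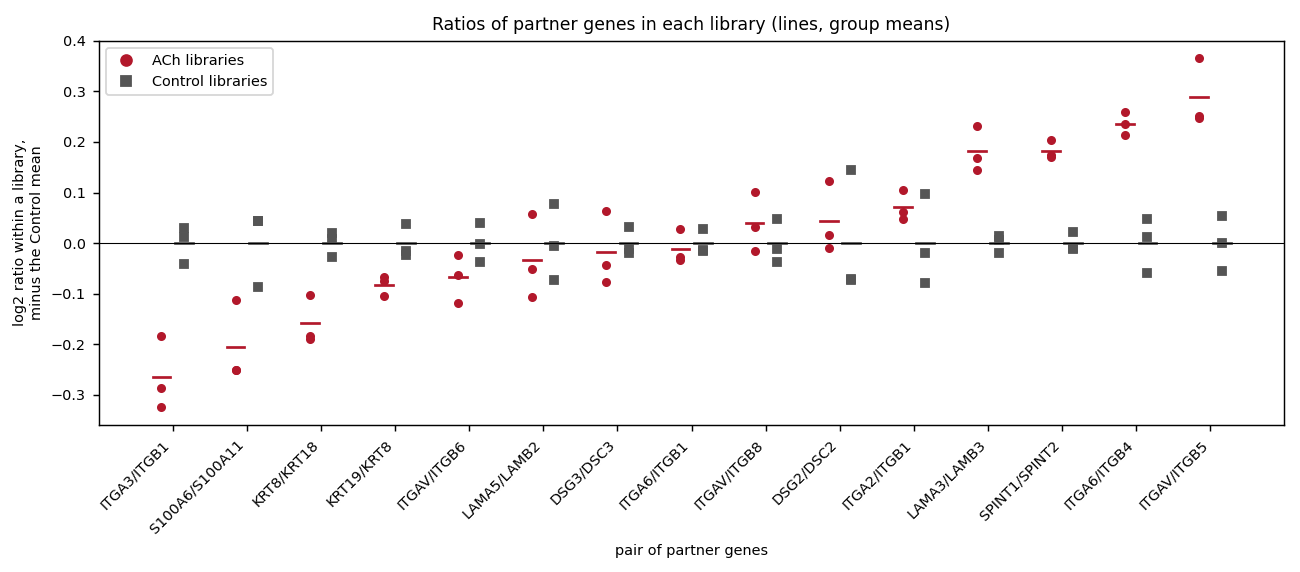
Log2 ratio of partner genes within each library, minus the mean of the Control libraries, for 15 pairs (circles, ACh; squares, Control; short lines, group means). ITGA3 per ITGB1 lies lowest and ITGAV per ITGB5 highest in ACh, and the desmosomal cadherin pairs lie around 0.

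By position, directions were shared on some chromosomes and mixed on others, with no test made. Over all listed genes, 28.8% rose and 35.0% fell, and shares per chromosome were not counted. On chromosome 18, which holds the desmosomal cadherins, LAMA3, SERPINB5 and SERPINB7, 5 of 7 members rose and 0 fell. On chromosome 2 all 5 rose (ITGA6, ITGAV, ITGB6, PKP4 and SERPINE2). With the GC trend removed, PKP4 and LAMA3 alone among these rises kept call and sign by limma. On chromosome 17, 5 of 6 fell (KRT19, KRT10, ITGB4, ITGA3 and MMP28) and COL1A1 did not pass both tests. KRT19 and KRT10 alone among these falls kept call and sign with the GC trend removed. On chromosome 1, 7 of 11 fell, 6 of them S100A genes, and ITGB3BP rose. Chromosome 8 held 2 rises and 4 falls, and chromosomes 3 and 5 each held 2 rises and 1 fall. Members that rose had a median deposited length of 6984.5 bases and those that fell 3918 bases. Longer genes lay higher in the table as a whole too. Spearman's rho between log2 fold change and length was 0.30 across the 66 members and 0.34 across the 4195 listed genes.

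Genes that work with the members were counted from lists fixed by function. Beside them stand the shares over all listed genes, 28.8% higher and 35.0% lower, or 28.8% and 23.6% with equal totals. Of 22 plaque and linker proteins of junctions, 12 were listed, 1 rose and 8 fell, of which 2 kept their call with equal totals. TJP1, the tight junction scaffold ZO-1, rose by 0.18, and EVPL and TJP3, envoplakin and ZO-3, fell by 0.26 and 0.25; TJP3 overlapped between groups. Of 26 focal adhesion and hemidesmosome genes, 15 were listed, 2 rose and 6 fell, 3 of the 6 also with equal totals. LPP and DST, an adhesion scaffold and the plakin that links keratins to hemidesmosomes, rose by 0.27 and 0.21, and BCAR1 and CD151 fell by 0.20 and 0.18. Of 36 other matrix proteins and matrix enzymes, 12 were listed, 2 rose and 7 fell, 6 of the 7 also with equal totals. P4HA1, a collagen prolyl hydroxylase, had 751 ± 91.5 in ACh and 533 ± 22.0 in Control (SD, n = 3 each) and rose by 0.49, CD44 rose by 0.12, and PPIB and AGRN, cyclophilin B and agrin, fell by 0.32 and 0.25. With the GC trend removed, 0 of 9, 1 of 8 and 3 of 9 calls of the 3 lists kept call and sign by limma, among them DST at 0.16, P4HA1 at 0.30 and PPIB at -0.25.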

How the data were processed

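RNA was sequenced from 3 ACh and 3 Control libraries of KYSE30 cells. The authors deposited 1 table with normalised read counts per gene and library (a signal scaled between libraries by a method not given in the sources used here), log2 fold changes, p-values and adjusted p-values. It lists 4195 genes, all with a p-value under 0.05 in the authors' comparison. Bowtie 0.12.2 and mouse genome builds are named per the submitters' processing notes, while the deposited gene identifiers are human. No source used here gives the counter, its use of strand or the human build. Depth is unknown.

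Values were transformed as log2(value + 1) and fitted across all listed genes with limma 3.58.1 in R 4.3.3 (trend, no covariate, no filter on low values), with Benjamini-Hochberg adjustment. A call required an adjusted p under 0.05 in limma and in the deposited table, where an adjusted p of exactly 1 was read as not adjusted. Because the listed genes were already selected on p, limma alone called nearly all of them. GC content was read from mouse genes matched by symbol (longest coding transcript, GENCODE annotation), found for 87.6% of listed genes and 98.5% of members, and its trend was removed per library by local regression with a span of 0.3. In each role, up to 3 members higher and up to 3 lower with the largest change among those called, with a mean of at least 100 normalised reads, are given in every library. Members, lists, pairs and tests were chosen with earlier results of these data known. Tables and figures were made with Matplotlib 3.10.9, SciPy 1.17.1, NumPy 2.4.6 and pandas 2.3.3 in Python 3.11.15. Alternatives were another pseudocount (0.1), a filter on low values, equal totals, removal of the GC trend, a replicate block, other adjustments and leaving out each library. One member is counted but not reported here.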

Additional observations from a re-analysis of the deposited data

How the results depend on the processing

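Against 22 rises and 28 falls, 8 members were called higher and 8 lower with the GC trend removed, 4 of the 8 higher being falls that had changed sign (PCDH1, ITGA3, ITGB4 and ADAM15), and 8 and 10 with the replicate block as well; with limma alone 28 and 37 passed. Leaving out 1 library gave 22 to 22 rises and 25 to 28 falls. The median log2 fold change of -0.10 became -0.016 with equal totals and -0.014 with the GC trend removed, with or without the replicate block, and ranged from -0.099 to -0.080 with 1 library left out. The cause was not tested. With the GC trend removed, with or without the replicate block, these named members changed sign: ADAM10 (-0.0399), ADAM9 (-0.0464), CLDN1 (-0.0144), COL4A3BP (-0.0539), DSC2 (-0.0596) and SERPINB5 (-0.0839) among the rises, and COL4A2 (0.0538), ITGA3 (0.103), ITGB4 (0.144), ITGB5 (0.0734), LAMA5 (0.0663), PCDH1 (0.135) and PKP3 (0.0541) among the falls. Of the other named members with a GC value, 17 lost the call and 9 kept it, or 16 and 10 with the replicate block, where COL18A1 was called too (adjusted p = 0.0248 by limma, against 0.0549). Equal totals ended the calls of 5 of 40 named members, and a pseudocount of 0.1 ended none. The replicate block alone left 22 rises and 28 falls. Deviations of same-numbered libraries correlated at 0.088, 0.10 and 0.19, so the numbers were not taken to pair the samples, although each library correlated best with its own number. The 2 planned edgeR fits on recovered reads were not run, because the whole-read steps could not be checked in the Control libraries. Unknown depth allows no counting interval, and genes outside the table could not be examined.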

Other observations

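Of 22 genes linked to mesenchymal transition, 8 were listed, 5 rose and 0 fell; among all listed genes 28.8% rose and 35.0% fell. Their functions were mixed: TGFBR1 and AXL rose (0.23 and 0.20), as did ESRP1 (0.16), an epithelial splicing factor known to oppose the transition, whereas TWIST1 (-0.31), TGFB1 (-0.19) and ESRP2 (-0.13) lay below Control without overlap but did not pass both tests. NRP1, a semaphorin and VEGF co-receptor, rose by 0.27 and HMGA2, a chromatin protein, by 0.24 on the log2 scale, and with the GC trend removed 2 of the 5 kept call and sign by limma, AXL and NRP1. Of 35 genes of the cornified envelope and squamous differentiation, 6 were listed, 3 rose and 2 fell. EMP1 and SPRR3 rose by 0.25 and 0.21, SFN and CSTB fell by 0.26 and 0.14, and CSTB alone of these 5 kept its call with the GC trend removed. Of 19 genes of the plasminogen system and membrane serine proteases, 4 were listed and all 4 fell, CTSD by 0.26 and FURIN by 0.17, but 1 of the 4 kept its call with equal totals and 0 of the 4 kept call and sign by limma with the GC trend removed. The lists overlap in function and no test of a list was made.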
